A study of Mus musculus with 6 samples.

Results

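The angiotensin system and the peptidases that process its peptides at the cell surface were followed in gonadal primordium epithelium of E10.5 mouse fetuses. Angiotensinogen (Agt) is cut by renin and then by angiotensin-converting enzyme (Ace) to give angiotensin II, which acts on the receptors Agtr1a and Agtr2. Glutamyl aminopeptidase (Enpep) and aminopeptidase N (Anpep) shorten the peptide from its amino end, neprilysin (Mme) cuts it and many other small peptides inside the chain, Ece1 makes active endothelin from its precursor, and Lnpep binds a short angiotensin fragment. Most of these enzymes are zinc metallopeptidases anchored in the plasma membrane, and several are best known from the brush border of kidney tubules, from perivascular cells and from immune cells.

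The members are all probe sets whose platform annotation gives exactly 1 of 9 gene symbols: Enpep, Agt, Agtr1a, Agtr2, Ace, Mme, Anpep, Ece1 and Lnpep. Of these genes 8 had at least 1 probe set, 12 probe sets in all, among 18194 genes named by probe sets with 1 symbol. Lnpep was not analysed here, since no probe set carried that symbol. The group was chosen by the measured difference between Emx2 knockout (KO) and wild-type pools, in which Enpep had been among the greatest falls, so that difference is given for the members as a description, with no test and no call.

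Both genotypes were measured at E10.5, on 3 arrays each. The KO pools came from fetuses labelled -/- for Emx2, a homeobox gene needed for the urogenital system, and the wild-type pools from fetuses labelled +/+. Each pool joined the laser-microdissected gonadal epithelium of 3 fetuses, and 15 ng of its RNA was amplified for 1 array carrying 45101 probe sets. The labels give no strain, sex or litter and do not describe the deleted allele. With 3 pools in each group p-values concern only the spread between pools, which the fit described below estimates partly from other probe sets.

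Values are the authors' deposited intensities after scaling every array to a common trimmed mean, in arbitrary units. A probe set was tested when its mean log2 value over the 6 pools reached an intensity of 26.4, the 40th percentile, and values under 7.99 were set to that floor before log2 was taken. A call means an adjusted p under 0.05 in limma's fit over 27022 tested probe sets. Each log2 difference is KO minus wild-type with its standard error (SE) from that fit. The SE draws on the variance of probe sets of like intensity as well as on a probe set's own values, so it is not the spread of its pools alone. Probe sets differ in how strongly they bind, so no level of a gene is set against that of another. In tissue samples of this kind, fewer cells of a type and less RNA per cell cannot be told apart.

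The pools differed in more than Emx2 genotype. The only Emx2 probe set read 1678, 1480 and 1746 in KO pools, against 1302, 2120 and 1727 in wild-type pools, and since no source used here places it relative to the deleted part, it does not check the labels. Xist, the RNA of the inactive X chromosome, lay between 9321 and 9888 in KO pools and between 13.3 and 69.9 in wild-type pools at its brightest probe set. The Y-linked genes Eif2s3y, Kdm5d and Uty were lower in all KO pools than in any wild-type pool at theirs. These markers of sex split the pools just as genotype did. A difference of fetal sex and one of genotype therefore cannot be told apart for any gene given here. Of 13 coelomic epithelium markers 12 were bright enough to be tested, 3 of them called higher and 3 lower in KO pools. Of all tested genes at their brightest probe set, 2.93% were called higher and 2.48% lower. Upk1b, Krt19 and Bnc1 were higher (log2 differences of 1.44, 1.02 and 0.49). Krt8, Nr5a1 and Aldh1a1 were lower (-0.59, -1.22 and -1.26). The summed levels overlapped, at 23690 to 26576 in KO pools and 25490 to 28514 in wild-type pools. Lhx9 and Podxl, the brightest markers, weighed most in these sums and were not called. Msln, a mesothelial surface protein, was under 26.4 in all pools, and the globin genes Hbb-bh1 and Hbb-y of embryonic red cells were bright in every pool.

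Of the 12 member probe sets, 9 were bright enough to enter the fit, for 6 genes, and 3 were too dim. Of all probe sets in the fit 4.68% were called, 2.75% higher and 1.93% lower in KO pools. The median log2 difference was 0.08 over the 9 member probe sets in the fit and 0.01 over all tested probe sets. The groups did not overlap at 3 of the 9, against 22% of all tested probe sets, and since the members were chosen with this contrast known nothing is read from that count.

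**Figure D1:**
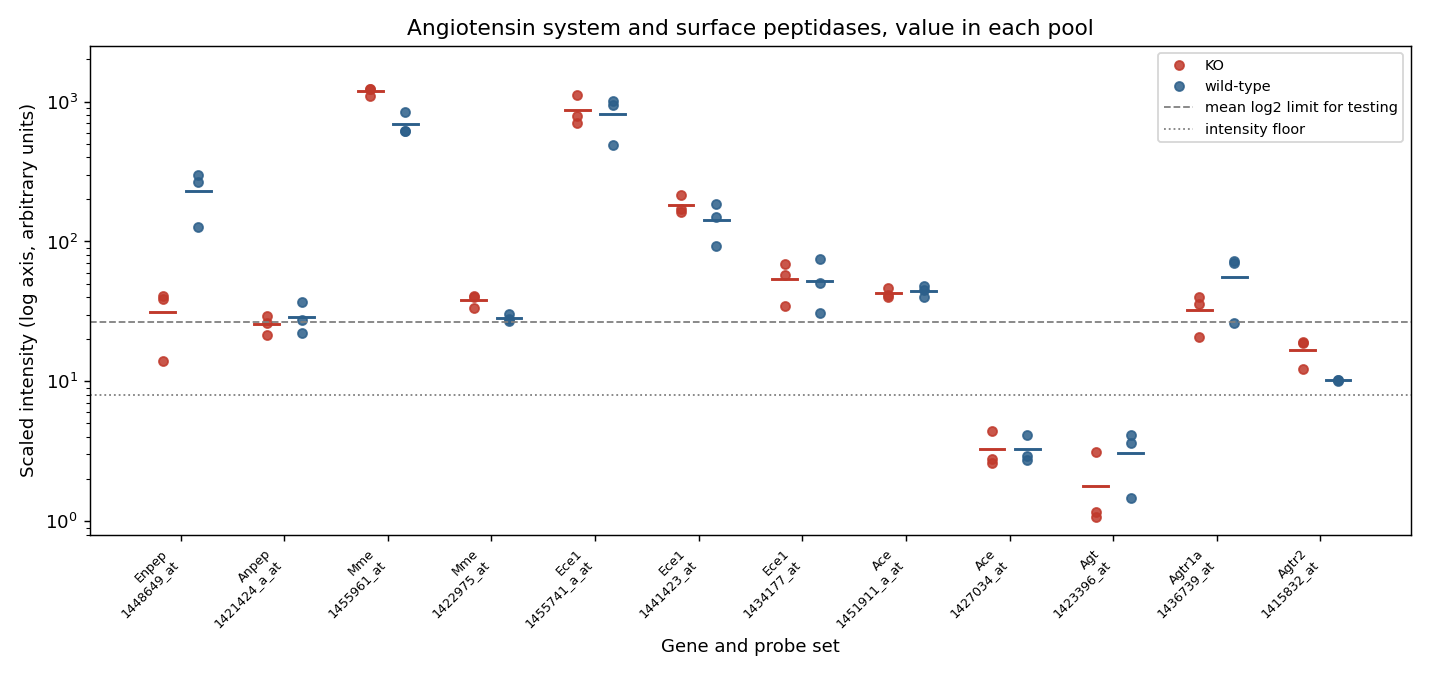
Scaled intensity (log axis, arbitrary units) of the 12 member probe sets in the 3 KO pools (red, left) and the 3 wild-type pools (blue, right), with bars at the group means. Enpep lies lower in all KO pools (13.9 to 40.9, against 127 to 298 in wild-type pools), the brightest Mme probe set lies higher (1093 to 1239, against 612 to 845), and Agt and a probe set of Ace lie under the floor in every pool. Heights of different probe sets are not comparable.

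Among the aminopeptidases, Enpep differed widely between the groups and Anpep did not separate them. Enpep read 38.7, 13.9 and 40.9 in KO pools, against 266, 298 and 127 in wild-type pools. Every KO pool lay under every wild-type pool, with KO replicate 2 the lowest of its group and wild-type replicate 3 the lowest of its own. The means were 31.2 ± 15.0 in KO pools and 230 ± 90.6 in wild-type pools (SD, n = 3 each), a log2 difference of -2.95 (SE 0.41), or a 7.71-fold lower level in KO pools. Its size rested partly on KO replicate 2, the only pool in which Enpep was under 26.4: without that pool the difference was -2.44, and over the fits that left out 1 pool each it ran from -3.33 to -2.44. The KO level lay near the limit for testing, so the fold is less certain than the direction, and with a pseudocount of 16 in place of the floor the log2 difference was -2.36.

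Anpep, which removes neutral residues from the ends of small peptides, read 21.3, 29.3 and 26.1 in KO pools, against 22.3, 36.7 and 27.3 in wild-type pools. The groups overlapped and the values straddled the limit for testing, with means of 25.6 ± 4.04 in KO pools and 28.8 ± 7.31 in wild-type pools and a log2 difference of -0.15 (SE 0.34).

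The sequences upstream of Enpep and Mme are shown because these members had the widest differences in either direction. They are the 250 bases before the RefSeq gene start (assembly GRCm38.p6), read 5′ to 3′ on the strand of the gene, from chr3:129332750-129332999 on the minus strand for Enpep and chr3:63294961-63295210 on the plus strand for Mme, where the most upstream of 3 listed starts was taken. Capitals mark matches to the searched motifs.
Enpep: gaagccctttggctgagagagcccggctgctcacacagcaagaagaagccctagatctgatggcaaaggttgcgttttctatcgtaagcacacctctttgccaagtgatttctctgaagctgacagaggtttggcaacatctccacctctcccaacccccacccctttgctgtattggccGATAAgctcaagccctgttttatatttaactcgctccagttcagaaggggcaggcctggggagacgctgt
Mme: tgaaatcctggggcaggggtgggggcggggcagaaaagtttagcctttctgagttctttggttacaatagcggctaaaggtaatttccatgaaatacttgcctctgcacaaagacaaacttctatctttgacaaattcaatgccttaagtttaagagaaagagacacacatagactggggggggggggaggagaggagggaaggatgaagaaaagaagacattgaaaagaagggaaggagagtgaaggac
The motifs searched on both strands were TAATTA, a core bound by many homeodomain proteins, AAGGTCA, a core bound by Nr5a1, and GATAA, bound by GATA factors. The only match in the printed windows was GATAA in that of Enpep, on the strand of the gene, 70 to 66 bases before the start, and it overlapped no other searched motif. RefSeq windows were at hand for 8 of the 9 members, 14 windows in all, Lnpep included and Agtr1a not. GATAA stood in 1 of the 14, against 22.6% of 32851 windows of all genes, and TAATTA and AAGGTCA in 0 of the 14, against 4.84% and 4.08%. A match is only a match of letters, and its absence says nothing of binding elsewhere.

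Among the endopeptidases, the brightest Mme probe set was higher in KO pools, in the opposite direction to Enpep. It read 1239, 1093 and 1235 in KO pools, against 614, 612 and 845 in wild-type pools. All KO pools lay above all wild-type pools, and wild-type replicate 3 lay nearest to them. The means were 1189 ± 83.1 in KO pools and 690 ± 134 in wild-type pools (SD, n = 3 each), a log2 difference of 0.80 (SE 0.14), or 1.74-fold higher in KO pools. A dimmer Mme probe set read 40.3, 33.6 and 40.5 in KO pools, against 28.0, 26.9 and 30.3 in wild-type pools. Its groups did not overlap either, but its log2 difference of 0.42 (SE 0.29) was smaller. Over the other processing settings and left-out pools the brighter one ran from 0.72 to 0.95.

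Ece1, the endothelin-converting enzyme, was measured by 3 probe sets, and KO and wild-type pools overlapped at each. The brightest read 1108, 787 and 701 in KO pools, against 488, 940 and 1007 in wild-type pools. Wild-type replicate 1 was the lowest of all 6 pools there, and the log2 difference was 0.13 (SE 0.24). Leaving out wild-type replicate 1 turned it to -0.20, and leaving out KO replicate 1 to -0.06. The middle one read 161, 216 and 172 in KO pools, against 92.4, 186 and 150 in wild-type pools, with a log2 difference of 0.41 (SE 0.24). The dimmest read 69.1, 34.3 and 57.7 in KO pools, against 74.4, 50.3 and 31.0 in wild-type pools (0.08, SE 0.36), and its sign turned without KO replicate 1, KO replicate 3 or wild-type replicate 3, to -0.25 at the furthest. The pools did not keep the same order at the 3 Ece1 probe sets.

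Ace, which turns angiotensin I into angiotensin II by removing its last residues, had 1 probe set that could be tested. It read 40.2, 41.5 and 46.1 in KO pools, against 40.4, 44.7 and 48.1 in wild-type pools. These values lay close together, with means of 42.6 ± 3.10 in KO pools and 44.4 ± 3.88 in wild-type pools and a log2 difference of -0.06 (SE 0.26). Its sign turned to 0.04 with the values as deposited and to a difference of about 0 without wild-type replicate 3. Another Ace probe set ran from 2.61 to 4.40 in KO pools and from 2.72 to 4.15 in wild-type pools, under the floor throughout.

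Agt, the source of all angiotensin peptides, was measured by 1 probe set that read 3.13, 1.17 and 1.07 in KO pools, against 1.46, 4.14 and 3.65 in wild-type pools. All values lay under the floor, so they have no order and no difference is given. Agt is made mainly by the liver, and of 5 liver bud markers with a probe set 4 were tested and 0 were called. Their summed level was 205 to 480 in KO pools and 154 to 2018 in wild-type pools, the highest in wild-type replicate 2, in which the Agt probe set also lay under the floor.

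The 2 receptors were both dim. Agtr1a, through which angiotensin II raises blood pressure, read 40.4, 35.8 and 20.8 in KO pools, against 26.0, 69.9 and 72.1 in wild-type pools. Wild-type replicate 1 lay among the KO pools, so the groups overlapped, with means of 32.3 ± 10.3 in KO pools and 56.0 ± 26.0 in wild-type pools (SD, n = 3 each). The log2 difference of -0.71 (SE 0.41) was -1.19 with wild-type replicate 1 left out and -0.42 with KO replicate 3 left out.

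Agtr2, the other angiotensin II receptor, which is prominent in fetal tissues, read 18.8, 12.3 and 19.0 in KO pools, against 10.2, 10.0 and 10.3 in wild-type pools. All KO pools lay above all wild-type pools, but every value was under 26.4 and the probe set was too dim to be tested. Agtr2 lies on the X chromosome, and the same pools differed in Xist as given above. The part of that difference in these values was not tested.

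**Figure D2:**
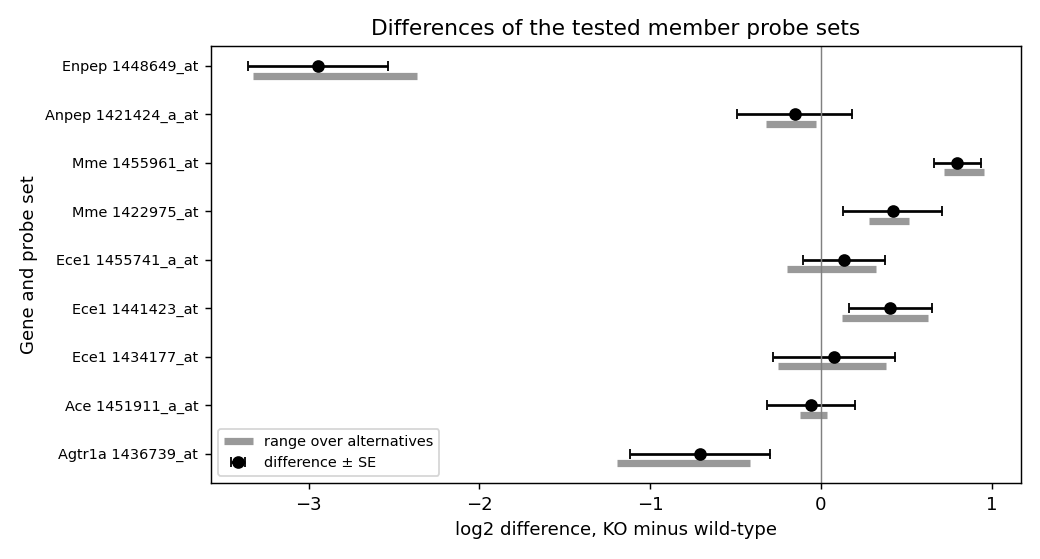
Log2 difference (KO minus wild-type, x axis) of the 9 member probe sets in the fit with its SE (black), and the lowest and highest value over the other processing settings and left-out pools (grey). Enpep lies at -2.95 and the brightest Mme probe set at 0.80, each on 1 side of 0 in every setting whose fit held it, while the ranges of Ace and of 2 Ece1 probe sets cross 0.

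Markers of other cell types moved in the same pools as Enpep and Mme. Of 12 nephric duct and mesonephric tubule markers 10 had a probe set and 7 were tested, of which 0 were higher and 2 lower in KO pools, beside 5.41% of all genes called at their brightest probe set. The summed level of this list was 278 to 374 in KO pools and 476 to 530 in wild-type pools. Pax8, a regulator of nephric development, read 50.6, 37.7 and 24.2 in KO pools, against 90.8, 101 and 84.5 in wild-type pools (log2 difference -1.36, SE 0.29, adjusted p = 0.0166). Lhx1, a further regulator of the nephric duct, read 20.6, 22.4 and 19.3 in KO pools, against 75.8, 45.5 and 59.1 in wild-type pools. It was called lower (-1.51, SE 0.30, adjusted p = 0.0116). All its KO values were under 26.4, so Lhx1 reached the limit for testing only through the wild-type pools. Cdh16, the kidney cadherin, read 5.04, 18.0 and 7.17 in KO pools, against 56.3, 43.2 and 52.6 in wild-type pools, and was too dim to be tested. Lrp2 and Cubn, the endocytic receptors of the tubule brush border, where Enpep is also known, did not pass (0.15, SE 0.29, and 0.41, SE 0.30; adjusted p = 0.852 and 0.544). No marker of the list lay at the floor in all pools, and the part of these cells in the Enpep difference was not tested.

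Several lists had higher sums in KO pools beside Mme, which mesenchymal and immune cells can carry. The counts below stand beside 2.93% of all tested genes called higher and 2.48% lower at their brightest probe set. Of 10 tested mesenchyme markers, 6 were higher and 0 lower, with summed levels of 19939 to 20900 in KO pools and 13736 to 15429 in wild-type pools. Of 8 tested endothelial markers, 4 were higher and 0 lower (1563 to 1830 in KO pools, 919 to 1207 in wild-type pools), with Pecam1 and Tie1 under 26.4 in all pools. Emcn, among those called, was under 26.4 in all wild-type pools (19.6, 20.7 and 25.7) and reached the limit for testing only through the KO pools. Of 6 leukocyte markers, Csf1r alone was called, higher (sums of 511 to 636 in KO pools and 286 to 455 in wild-type pools). Without Csf1r the leukocyte sums overlapped, at 207 to 248 in KO pools and 145 to 240 in wild-type pools. Of 9 tested pericyte and smooth muscle markers, which bear on Enpep as well, 2 were higher (Pdgfrb and Abcc9) and 1 lower (Cspg4), with sums of 5625 to 6176 in KO pools and 4776 to 5326 in wild-type pools. Without Pdgfrb these sums overlapped too, at 4378 to 5018 in KO pools and 4144 to 4585 in wild-type pools. Of 3 tested blood markers 0 were called (26445 to 27343 in KO pools, 26815 to 29578 in wild-type pools). The part of these cells in the Mme difference was not tested.

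**Figure D3:**
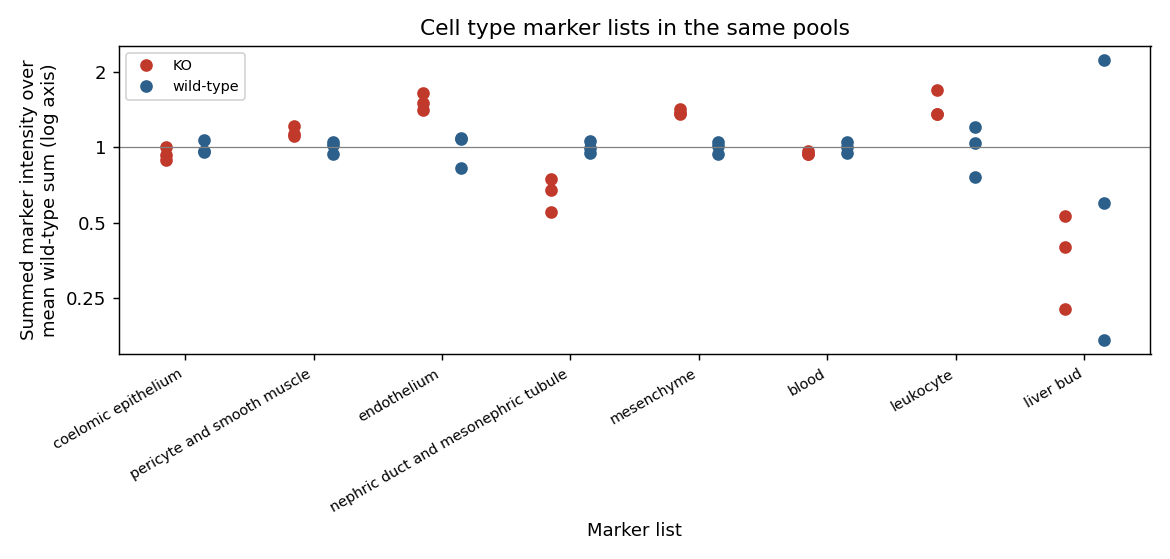
Summed scaled intensity of each cell type marker list in each pool, divided by the mean of the 3 wild-type sums (log axis), for KO (red, left) and wild-type pools (blue, right). The nephric list lies lower in all KO pools, the mesenchyme and endothelium lists lie higher, the leukocyte and pericyte lists lie higher through Csf1r and Pdgfrb, without which their sums overlap, and the liver list spreads widest, among wild-type pools.

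Other genes of the same systems were described through 3 lists, each gene by its brightest tested probe set, or its brightest where none was tested. Of 60 genes 56 had a probe set and 32 were tested, of which 2 were higher, 3 lower and 27 did not pass, beside 2.93% of all tested genes called higher and 2.48% lower. Their median log2 difference was -0.12, against -0.01 for all tested genes. Since these lists were chosen with earlier results of these data known, nothing is read from these counts or this median. Edn1, the endothelin whose precursor Ece1 cuts, and Adm, a vasodilator peptide, were the strongest falls called, and Ednrb, an endothelin receptor, was the strongest rise called.

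Edn1 read 38.7, 39.2 and 51.4 in KO pools, against 213, 191 and 224 in wild-type pools. The groups lay far apart, and the fall of -2.29 on the log2 scale (SE 0.21) passed limma's test with an adjusted p of 6.07e-05. Adm read 84.9, 69.2 and 80.9 in KO pools, against 457, 434 and 235 in wild-type pools (log2 difference -2.21, SE 0.24, adjusted p = 0.000183). Wild-type replicate 3 was the lowest of its group, as it was for Enpep. These Adm values are from a probe set of a type (_x_at) that can cross-hybridise. A dimmer Adm probe set read 16.8, 23.2 and 23.6 in KO pools, against 50.5, 78.0 and 46.4 in wild-type pools (-1.44, SE 0.32, adjusted p = 0.0206). Its KO values were all under 26.4, so it reached the limit for testing only through the wild-type pools and adds little to the first. Ednrb read 165, 111 and 147 in KO pools, against 58.2, 48.0 and 40.3 in wild-type pools (1.53, SE 0.24, adjusted p = 0.00231). A further tested Ednrb probe set overlapped between the groups and did not pass (0.32, SE 0.30, adjusted p = 0.653), so the Ednrb rise rests on 1 of its 2 tested probe sets. Adm and Ednrb each passed in 15 of the 16 alternatives that tested them, the exception being the fit with no filter on dim probe sets. In this list of peptides and receptors 12 genes were tested, 1 higher, 2 lower and 9 not passing. Bdkrb1 and Bdkrb2, the bradykinin receptors, were among 8 genes under 26.4 in all pools.

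In the list of further renin-angiotensin genes, 8 of 12 with a probe set were tested, 1 was higher and 7 did not pass. The one called was Hsd11b2, which inactivates glucocorticoids and so guards the mineralocorticoid receptor. It read 593, 569 and 579 in KO pools, against 466, 334 and 389 in wild-type pools (log2 difference 0.56, SE 0.14, adjusted p = 0.0413). The call passed in 1 of the 6 fits that left out 1 pool each, that without wild-type replicate 1, and in 6 of all 17 alternatives. Prcp, which removes the last residue of angiotensin II, did not pass (0.28, SE 0.22, adjusted p = 0.578). Its other tested probe sets differed in sign and did not pass either (0.26, SE 0.23, adjusted p = 0.627, and -0.11, SE 0.25, adjusted p = 0.870). Agtr1b, Mas1, Cma1 and Nr3c2, 2 receptors of angiotensin peptides, mast cell chymase and the mineralocorticoid receptor, were under 26.4 in every pool. Atp6ap2, the prorenin receptor, was bright and did not pass (3863 ± 92.6 in KO pools and 4065 ± 194 in wild-type pools; -0.07, SE 0.08, adjusted p = 0.708).

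Among other peptidases 12 of 22 genes with a probe set were tested, 0 were higher, 1 was lower and 11 did not pass. Cpe, a carboxypeptidase that trims prohormones, read 2350, 2206 and 2469 in KO pools, against 3279, 3467 and 2787 in wild-type pools. All KO pools lay under all wild-type pools, and the difference was small (-0.44, SE 0.10, adjusted p = 0.0239). That call passed in 1 of the 6 fits that left out 1 pool each, the one without wild-type replicate 3, and in 9 of all 17 alternatives. Aopep, an aminopeptidase of the family that also holds Enpep, Anpep and Lnpep, gave 284 ± 61.3 in KO pools and 440 ± 53.3 in wild-type pools. It did not pass (-0.65, SE 0.18, adjusted p = 0.0602), though it passed in 3 of the 16 alternatives that tested it. At its other tested probe sets the groups overlapped and neither passed (-0.61, SE 0.25, adjusted p = 0.227, and -0.02, SE 0.25, adjusted p = 0.981). Npepps and Rnpep, further aminopeptidases of the family of Enpep, gave -0.25 (SE 0.09) and -0.23 (SE 0.17) and did not pass. Ece2, the closest relative of Ece1 in the list, gave -0.14 (SE 0.14). The aminopeptidase Erap1 went the other way, with all KO pools above all wild-type pools, and did not pass (0.48, SE 0.29, adjusted p = 0.448). Cpm, a carboxypeptidase, also lay higher in all KO pools without passing (0.65, SE 0.19, adjusted p = 0.0734). Dpp4 and Mep1b lay lower in all KO pools but were too dim to be tested. Dpp4 ran from 3.32 to 21.0 in KO pools and from 25.1 to 39.2 in wild-type pools. Mep1b ran from 1.39 to 5.37, under the floor, in KO pools and from 12.2 to 24.7 in wild-type pools. At the other untested genes of this list the groups overlapped.

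**Figure D4:**
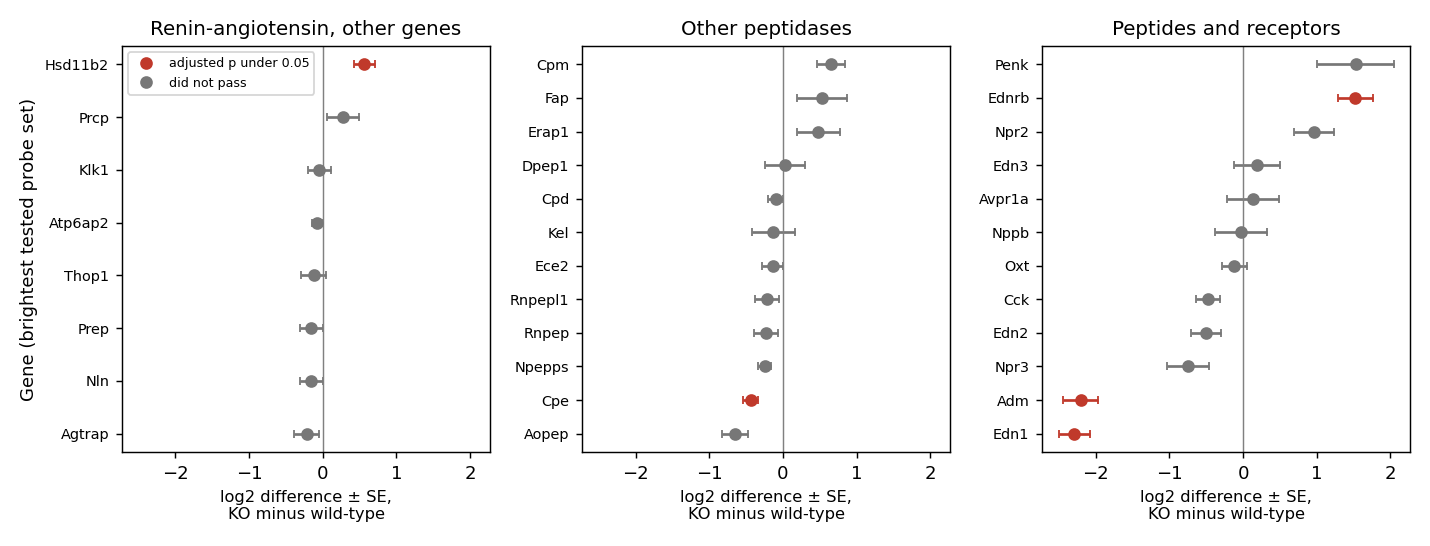
Log2 difference (KO minus wild-type, x axis) with its SE for the tested genes of the 3 lists of other genes, red where the adjusted p was under 0.05. Edn1 (-2.29) and Adm (-2.21) lie furthest left and Penk and Ednrb (1.53 each) furthest right, of which Penk did not pass, and the renin-angiotensin genes lie near 0 apart from Hsd11b2 (0.56).

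The pattern of Enpep over the 6 pools was set against those of 12314 other tested genes by the root mean square difference of log2 values, each centred on its mean over the pools. Each other gene stood by whichever of its tested probe sets lay closest to Enpep, not by its brightest. The nearest was Adtrp, a membrane-bound lipid hydrolase, at 0.13, against a median of 1.58 over all genes. Adtrp read 25.5, 10.1 and 25.4 in KO pools, against 193, 175 and 94.9 in wild-type pools. As with Enpep, its lowest KO pool was replicate 2 and its lowest wild-type pool replicate 3. The next were Sp6, a zinc finger transcription factor, at 0.53, Igf1, an insulin-like growth factor, at 0.54, Emx2os, the transcript opposite Emx2, at 0.55 and Cfap161, a cilium gene, at 0.57. Igf1 read 218, 94.2 and 179 in KO pools, against 707, 830 and 355 in wild-type pools, with the same lowest pools as Enpep. Sp6 had wild-type pools close together, at 174, 189 and 185. Likeness was scored on the contrast that chose Enpep, and over so few pools most of it is the difference between the groups.

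**Figure D5:**
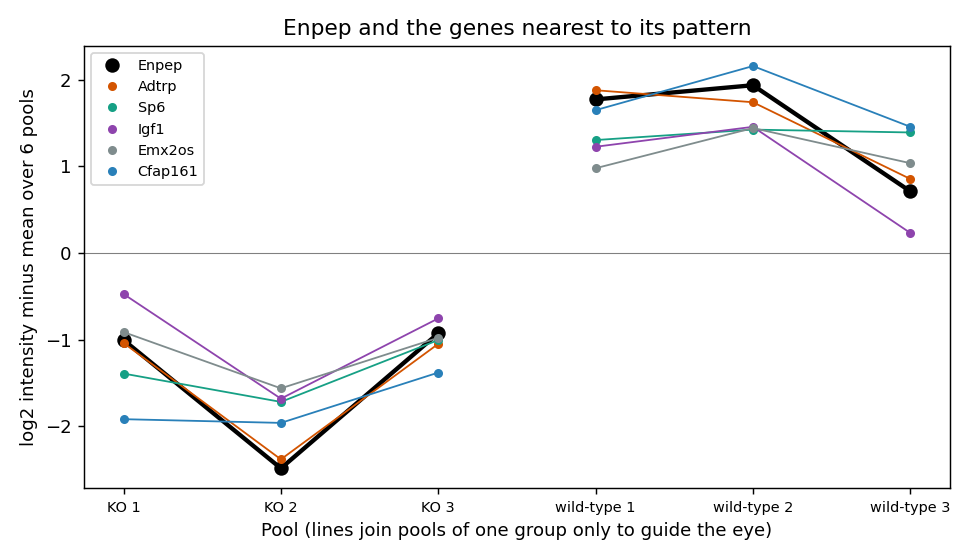
Log2 intensity minus its mean over the 6 pools (y axis) for Enpep (black) and the 5 nearest genes, KO pools left and wild-type pools right. Adtrp follows Enpep within both groups, with the same lowest KO and wild-type pools, and the other 4 genes are further from it.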

How the data were processed

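The authors deposited 1 linear intensity per probe set and array. The submitters' processing notes name GCOS 1.2, and the sources used here do not state its algorithm or scaling. The deposited 2% trimmed means ran from 289 to 356 in KO arrays and from 254 to 373 in wild-type arrays, so each array was scaled to 309, values under the 20th percentile (7.99) were raised to that floor, and the log2 of each was used. Left out were 64 control probe sets and the lowest 40% by mean log2 value. The rest were fitted with limma 3.58.1 in R 4.3.3 (lmFit, eBayes with an intensity trend), and two-sided p-values were adjusted after Benjamini and Hochberg over all 27022. Symbols came from the platform's annotation table: 34958 probe sets had 1 symbol, 932 several and 9211 none. Amplification shortens RNA, so probe sets far from the end of a transcript can read low.

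The members and lists were chosen with earlier results of these data known. Named are all probe sets of the members and of Emx2; Xist and Y-linked genes; in each of the 3 lists of other genes up to 4 called genes with the largest changes, or by smallest p where fewer than 2 were called; and the 5 genes nearest to Enpep. Atp6ap2, Npepps, Rnpep, Ece2, Erap1, Cpm, Penk, other dim list genes and single markers were picked after their values were seen. Alternatives were other scalings, floors, filters and variance models, the replicate block, and each pool left out.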

Additional observations from a re-analysis of the deposited data

How the results depend on the processing

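The log2 differences of Enpep (-3.33 to -2.36) and of the brightest Mme probe set (0.72 to 0.95) kept their sign in every alternative, except that Enpep was too dim to enter the fit with the lowest 60% left out. With no filter on dim probe sets 151 probe sets were called in all, 107 higher and 44 lower, of 45037 tested; with no intensity trend 541, 317 higher and 224 lower; and with values as deposited 267 were lower. Without 1 pool the counts ran from 721 to 1687 called, 441 to 892 higher and 271 to 795 lower. Of the other angiotensin and peptidase genes, 1 was higher under quantile normalization, scaling to a common median, the 60% filter, no intensity trend and the replicate block, and 0 with no filter. Lower were 1 with no filter and 1 with probe sets ending in _x_at, _s_at or _a_at left out, only some of which can cross-hybridise. That setting removes the brightest Edn1 (_a_at) and Adm (_x_at) probe sets. A gene so removed was not read again through a dimmer probe set, so Adm dropped out of that count. Without 1 pool 1 to 2 were higher and 2 to 4 lower. The cause of these shifts was not tested. The replicate block left 1160 called, and under it 4 of the other genes were lower, Aopep (adjusted p = 0.0343) among them. Aopep also passed with the 60% filter and without wild-type replicate 3. Deviations of same-numbered pools from their group means correlated at -0.0654, 0.0405 and -0.0509, and those of differently numbered pools at -0.0773 to 0.127. With 3 pools per group such correlations cannot settle whether the numbers pair the pools, and the labels do not say. Signal near background limits what can be said of Agt, Agtr2, Anpep, Agtr1a, the dimmer Ace probe set and Enpep in KO pools, and 3 arrays per group limit the precision.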
